A study of Mus musculus with 17 samples.

Results

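The 42 genes described here encode proteins that take a cell into mitosis, build the spindle, segregate the chromosomes and divide the cytoplasm. They were chosen by name as a list of mitosis and cytokinesis genes, with earlier results of these data known. Counts among the 42, set beside shares of all genes, are therefore descriptions. All 42 were found by symbol in both deposited tables, each of which holds 23361 genes. Their expression was followed in mouse primordial germ cells, from which eggs and sperm later develop, which had been purified with or without prior exposure of the samples to ionizing radiation. RNA was sequenced after depletion of ribosomal RNA, in 17 libraries.

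On the first embryonic day sampled, E11.5, there were 2 irradiated and 3 non-irradiated libraries, with no sex given. At E13.5 there were 3 irradiated and 3 non-irradiated female libraries, coded FIR and FC, and 3 male libraries each of the codes MIR and MC. The male labels contradict each other: titles and condition entries call MIR non-irradiated and MC irradiated, whereas the codes follow the pattern of the female codes. Male libraries are called by their codes for that reason, and the male change is MIR minus MC. For replicate 1 of the irradiated females, the cell type is given as E11.5 but the title, the source and the table that holds it say E13.5. Strain, dose and time after exposure are not given in the labels, nor is it stated that replicates came from separate embryos; the p-values rest on how far these libraries vary and on nothing more.

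As background, entry into mitosis is driven by Cdk1 bound to A- and B-type cyclins, and exit by the anaphase-promoting complex (APC/C), a ubiquitin ligase that destroys those cyclins and releases separase to cut the cohesin between sister chromatids. Most genes of this kind are transcribed late in the cell cycle. Their promoters often carry a CHR element (cell cycle genes homology region), which is read by the MuvB complex with either a repressing or an activating partner, and nearby CCAAT boxes, which are bound by NF-Y. In the mouse gonad around these days, female germ cells stop dividing to enter meiosis and male germ cells enter a mitotic arrest.

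The promoter windows, from 250 bases before to 50 bases after the transcription start, were taken from RefSeq on GRCm38.p6, which held 37 windows for 35 of the 42 genes, Ect2 and Prc1 having 2 each. Ccna2, Cdc25c, Aurkb, Incenp, Tpx2, Smc4 and Kif20a had none in that table. The CHR was searched as TTTGAA or TTTAAA and the CCAAT box as CCAAT, on both strands, so that the reverse forms TTCAAA and ATTGG count as matches; 2 CCAAT boxes on opposite strands can overlap, as they do once in Ube2c. A CHR match was found in 86.5% of the 37 windows and in 27.6% of all 32851 windows in the table. CCAAT matched in 86.5% of the 37 and in 37.4% of all windows, and both motifs stood in 78.4% of the 37 and in 10.7% of all. The 4 genes with the most matches are shown because they carry the layout that most of the set shares, with CHR and CCAAT matches in capitals, read 5′ to 3′ along the gene's own strand; 5 genes had 5 matches, of which Ccnb2, the gene with the highest mean FPKM at E13.5, was taken. The windows are chr11:99024140-99024439 (minus strand) for Top2a, chr2:164769679-164769978 (plus strand) for Ube2c, chr11:40733388-40733687 (minus strand) for Hmmr and chr9:70421505-70421804 (minus strand) for Ccnb2.
Top2a: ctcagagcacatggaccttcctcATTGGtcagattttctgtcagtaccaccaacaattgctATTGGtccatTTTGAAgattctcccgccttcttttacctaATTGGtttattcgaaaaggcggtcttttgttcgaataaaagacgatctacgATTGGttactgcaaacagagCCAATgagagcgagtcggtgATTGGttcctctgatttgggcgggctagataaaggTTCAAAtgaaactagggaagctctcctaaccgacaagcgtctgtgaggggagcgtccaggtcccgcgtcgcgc
Ube2c: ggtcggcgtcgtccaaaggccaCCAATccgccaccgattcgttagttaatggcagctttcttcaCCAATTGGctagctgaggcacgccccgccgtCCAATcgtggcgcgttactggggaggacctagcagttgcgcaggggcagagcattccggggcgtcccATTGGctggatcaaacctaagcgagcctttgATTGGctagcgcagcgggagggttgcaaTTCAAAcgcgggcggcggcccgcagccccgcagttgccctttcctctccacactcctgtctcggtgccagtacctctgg
Hmmr: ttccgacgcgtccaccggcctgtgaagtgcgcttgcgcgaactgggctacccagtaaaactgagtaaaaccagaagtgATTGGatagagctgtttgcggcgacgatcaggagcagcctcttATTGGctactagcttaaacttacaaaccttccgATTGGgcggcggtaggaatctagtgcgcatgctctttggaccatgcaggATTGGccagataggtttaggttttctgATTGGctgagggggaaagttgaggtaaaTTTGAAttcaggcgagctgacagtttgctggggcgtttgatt
Ccnb2: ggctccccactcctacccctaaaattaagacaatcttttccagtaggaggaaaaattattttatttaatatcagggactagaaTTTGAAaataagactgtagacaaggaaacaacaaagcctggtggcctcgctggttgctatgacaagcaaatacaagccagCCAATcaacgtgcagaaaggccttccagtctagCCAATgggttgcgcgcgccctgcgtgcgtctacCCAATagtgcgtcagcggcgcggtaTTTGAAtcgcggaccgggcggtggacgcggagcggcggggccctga
Top2a, which encodes the topoisomerase that untangles sister chromatids, had 2 CHR and 6 CCAAT matches, and Ube2c, the ubiquitin-conjugating enzyme of the APC/C, had 1 and 6. Hmmr, which encodes a spindle-binding protein, had 1 and 5, and cyclin B2 (Ccnb2) had 2 and 3. A match is only a run of letters and does not show binding.

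**Figure D1:**
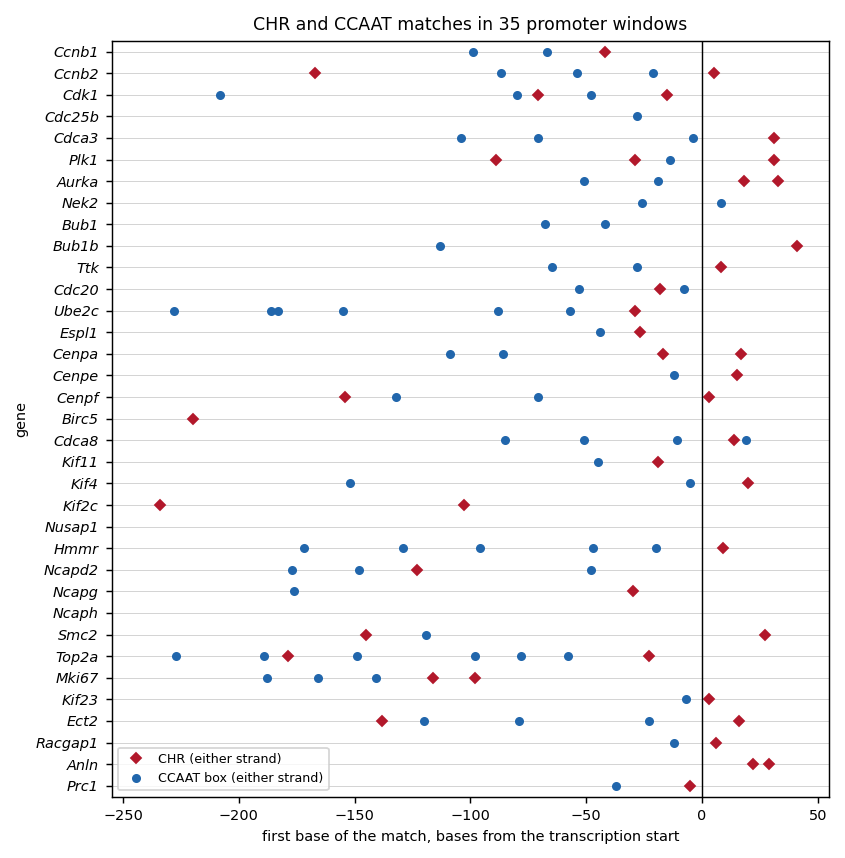
CHR matches (red diamonds) and CCAAT matches (blue circles) on either strand in the promoter windows of 35 genes, by distance of the match's first base from the transcription start (line at 0); 1 of the 2 windows of Ect2 and Prc1 is drawn. CHR matches stand in 30 of the 35 genes and CCAAT matches in 30, and Nusap1 and Ncaph have neither.

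Values are FPKM, fragment counts scaled by transcript length and library depth, as the authors computed them. Depth, estimated from the spacing of the lowest values, was 11.4 to 19.9 M (mega) fragments per library at E11.5 and 13.6 to 26.8 M fragments at E13.5. Changes are differences of log2(FPKM + 1), which understate the change of low genes, and were tested with limma across all genes; a gene is said to have risen or fallen where its Benjamini-Hochberg adjusted p, two-sided, was under 0.05. Cdkn1a, the p53 target that encodes the cell cycle inhibitor p21, served as a check of the radiation labels. It had 52.9, 74.6 and 79.3 FPKM in irradiated females, against 26.7, 29.7 and 25.7 FPKM in non-irradiated females, and 56.4, 57.6 and 65.7 FPKM in the MIR libraries, against 19.1, 14.98 and 15.2 FPKM in the MC libraries. At E11.5 it had 17.996 and 24.6 FPKM in irradiated and 14.5, 15.9 and 19.02 FPKM in non-irradiated cells, and these overlap. Cdkn1a was thus high in the set coded MIR, which its titles call non-irradiated.

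Mitosis and cytokinesis genes were lower at E13.5 in irradiated females than in non-irradiated females. The change was below 0 for all 42 genes, and 35 fell and 0 rose, where 22.9% of the 12852 genes tested fell and 21.8% rose. The median log2 change of the 42 was -0.68, beside -0.03 over all genes tested, with 25 changed by more than 1.5-fold and 2, Cenpf and Mki67, by more than 2-fold. Without irradiated replicate 3 the log2 changes of Cenpf and Mki67 were -0.85 and -0.81, which is under 2-fold. The mean level of the 42 genes was 5.51 ± 0.12 in irradiated and 6.15 ± 0.03 in non-irradiated females (log2(FPKM + 1), SD, n = 3 each). In 39 genes the 3 irradiated libraries all lay below the 3 non-irradiated ones, which was so for 32.3% of all genes tested (29.3% lay apart the other way). The 7 that did not pass the threshold were Cdc25b, Cdc25c, Ube2c, Cenpe, Aurkb, Birc5 and Smc4.

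The male sets differed in the same direction. All 42 changes were below 0 in MIR minus MC, and 36 genes fell and 0 rose, where 31% of genes tested fell and 28.7% rose. The median log2 change was -0.66, beside -0.04 over all genes tested, with 24 changed by more than 1.5-fold and 2, Espl1 and Cenpf, by more than 2-fold. The mean level was 5.58 ± 0.26 in the MIR and 6.22 ± 0.04 in the MC libraries (SD, n = 3 each), so MIR libraries spread more widely than MC libraries. MIR replicate 2 stood at 5.87 and was the highest MIR library for 41 of the 42 genes, while replicates 1 and 3 stood at 5.41 and 5.45. The groups did not overlap for 35 genes, beside 34.5% of all genes tested (30.4% the other way). Cdc25b, Cdc25c, Cenpe, Hmmr, Ncaph and Smc4 did not pass the threshold. With MIR replicates 1 and 3 both left out, fewer of the 42 fell, and fewer were called over all genes tested too. That fit assumes that the lone MIR library varies as the other groups do.

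**Figure D2:**
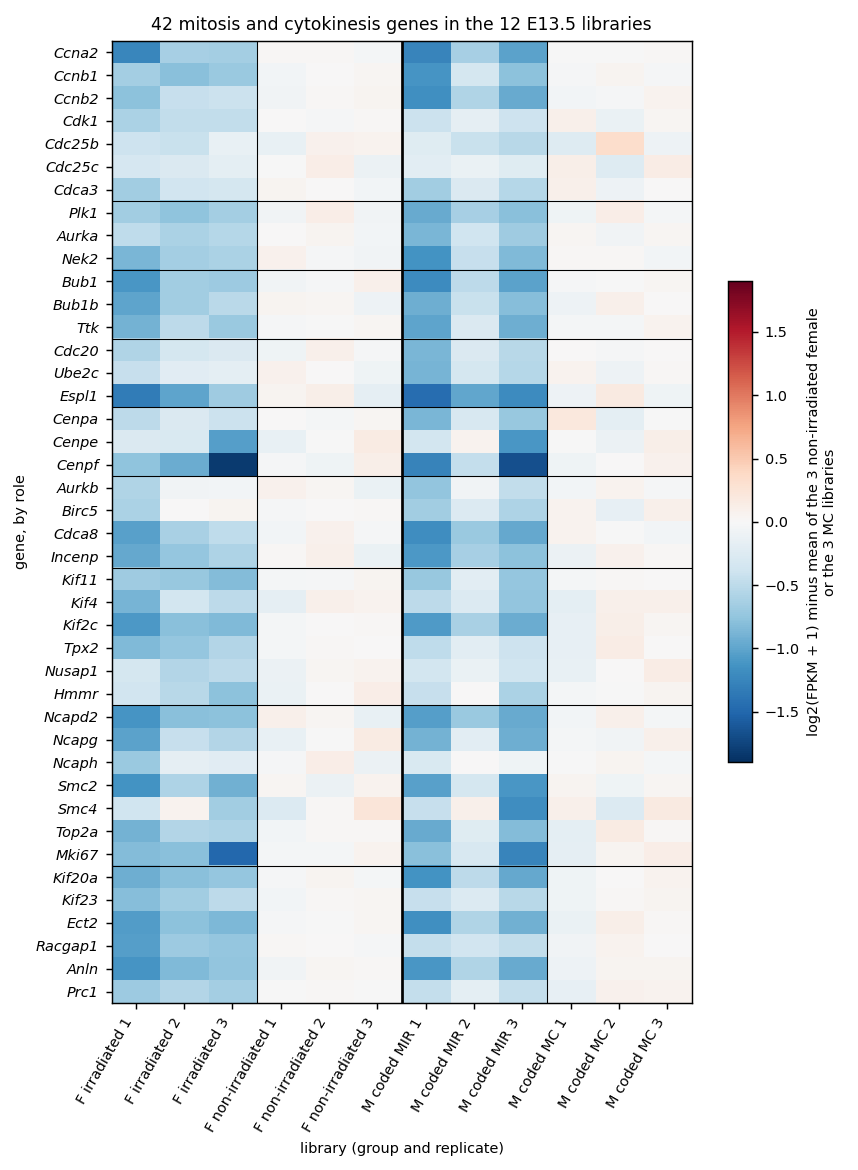
Log2(FPKM + 1) of the 42 genes (rows, by role) in the 12 E13.5 libraries (columns), as the difference from the mean of the 3 non-irradiated female libraries (left) or of the 3 MC libraries (right). Blue fills the 3 irradiated female columns and the columns of MIR replicates 1 and 3, MIR replicate 2 is paler, and the deepest blue of each panel is Cenpf in replicate 3 of the irradiated female or MIR set.

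The levels of germ cell markers moved with these genes. The summed FPKM of 12 germ cell markers was 1755, 2698 and 2652 in irradiated females, against 3481, 3553 and 3685 in non-irradiated females, with 6 of the 12 fallen and 0 risen (median log2 change -0.61). It was 1424, 2708 and 1892 in the MIR libraries, against 4323, 4090 and 4458 in the MC libraries, with 11 of the 12 fallen (median -1.06). None of the 12 was at 0 in all libraries of any group, and the highest MIR sum is that of replicate 2, the library with the highest mitotic levels.

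The same libraries had more RNA of gonadal somatic cell markers. Pregranulosa markers, 10 genes of the female supporting cells, summed to 342, 144 and 133 FPKM in irradiated females, against 10.6, 9.90 and 11.3 FPKM in non-irradiated females, and 9 of 10 rose. Markers of Sertoli cells, the male supporting cells, and of supporting cells in general summed to 3545, 1055 and 3251 FPKM in the MIR libraries, against 56.0, 90.8 and 100.2 FPKM in the MC libraries, and 11 of 11 rose. Irradiated female replicate 1, with the highest pregranulosa sum, was the lowest of its group for 31 of the 42 mitotic genes, and MIR replicate 2, with the lowest Sertoli sum, was the lowest of its group for 0. Foxl2, a defining pregranulosa gene, had 14.9, 5.11 and 6.49 FPKM in irradiated females, against 0.14, 0.226 and 0.344 FPKM in non-irradiated females. In males the pregranulosa sums were 77.1, 30.5 and 47.6 FPKM in MIR, against 5.73, 7.17 and 7.22 FPKM in MC libraries, and 3 of 10 rose (Wnt4, Kitl and Nr2f2). Of these Kitl rose most, with a log2 change of 3.88, while the median over the list was 0.26. Whether this male RNA came from pregranulosa cells was not tested. In females the Sertoli and supporting cell list summed to 137, 60.6 and 65.7 FPKM in irradiated and 3.41, 3.56 and 3.24 FPKM in non-irradiated libraries. Of its genes 4 of 11 rose (Wt1, Gata4, Nr5a1 and Cst9), of which Wt1, Gata4 and Nr5a1 are not confined to Sertoli cells. The Sertoli gene Hsd17b3 was at 0 in all 6 female libraries. Macrophage markers summed to 46.8 to 76.1 FPKM in irradiated and 12.2 to 16.5 FPKM in non-irradiated females, and to 12.5 to 31.8 FPKM in MIR and 5.02 to 6.15 FPKM in MC libraries; 8 of 8 tested rose in each comparison. Of 7 mesenchyme markers tested, 2 rose in females (Col3a1 and Dcn) and 5 in MIR. Of 5 erythroid markers tested, Hba-x and Hbb-y fell in females, with Hba-x and Hbb-bh1 at 0 in the irradiated libraries, and Alas2 rose in MIR. Of 3 endothelial markers tested, Tek rose and Pecam1 fell in both comparisons. Pecam1 stood far above the rest of that list, at 57.2 to 77.9 FPKM over the E11.5 libraries. Cdh5, Kdr, Tek and Emcn reached at most 3.03 FPKM there. Which cells the Pecam1 RNA came from was not tested. The part of these cells in the fall of the mitotic genes was not tested beyond the fits given below.

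The 42 genes were also set against the germ cell markers. The mean log2 level of the 42 genes minus that of the 12 germ cell markers was -1.18 ± 0.22 in irradiated and -1.21 ± 0.06 in non-irradiated females (SD, n = 3 each), and these ranges overlap. It was -0.40 ± 0.25 in the MIR and -0.91 ± 0.09 in the MC libraries, with no overlap; MIR replicate 1 stood at -0.11, and replicates 2 and 3 at -0.58 and -0.52. Whether these differences differ between the sexes was not tested. With the mean germ cell marker level as a covariate of the fit, 18 of the 42 genes fell in females and 0 in males, where 0 rose in either. Calls over all genes tested dropped too in that fit, most in males, as counted in the closing section. Some genes outside the 42 kept a male call there, and whether the loss among the 42 differs from that over all genes was not tested. The covariate itself differs between the groups, so what it removes and the group difference cannot be told apart. In these bulk samples, fewer germ cells and less of an RNA per germ cell cannot be told apart.

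**Figure D3:**
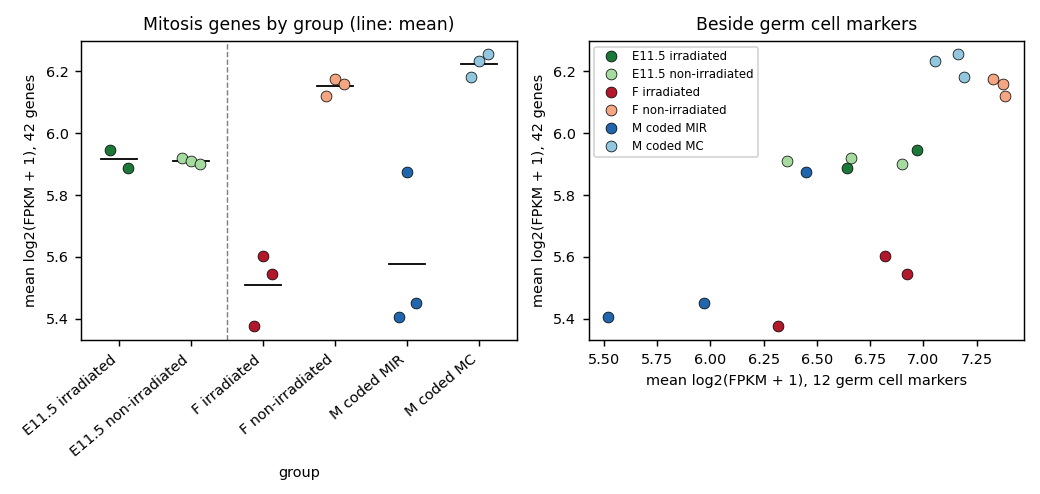
Left, mean log2(FPKM + 1) of the 42 mitosis and cytokinesis genes in each library (points) with group means (lines); the dashed line parts the tables of E11.5 and E13.5, which were normalized separately. Right, the same means against those of 12 germ cell markers, in which the irradiated female and MIR libraries lie below and to the left of the non-irradiated female and MC libraries.

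Among the genes of mitotic entry, 5 of 7 fell in females and 5 of 7 in males. Ccna2, the cyclin that acts in S phase and at entry into mitosis, changed most. Ccna2 had 60.5, 92.6 and 91.9 FPKM in irradiated females, against 146, 147 and 139.6 FPKM in non-irradiated females (log2 change -0.84, SE 0.17, adjusted p = 0.00205). Ccna2 had 60.1, 93.3 and 71.05 FPKM in the MIR libraries, against 144, 143 and 147 FPKM in the MC libraries (log2 change -0.96, SE 0.17, adjusted p = 0.000466). The groups did not overlap in either sex, and replicate 1 was lowest in both irradiated female and MIR sets. Cyclin B1 (Ccnb1) had 186, 169 and 178 FPKM in irradiated females, against 282, 294 and 299 FPKM in non-irradiated females, with no overlap (log2 change -0.72). In males it had 159, 273 and 201 FPKM in MIR and 341, 357 and 339 FPKM in MC libraries (log2 change -0.75), and by FPKM it was the most abundant of the 42 in non-irradiated females. Cdc25c, a phosphatase that activates Cdk1, changed least in the group. Cdc25c had 8.73, 8.95 and 9.61 FPKM in irradiated females, against 11.01, 12.2 and 10.2 FPKM in non-irradiated females (log2 change -0.26, adjusted p = 0.0948). In males it had 13.1, 13.8 and 12.9 FPKM in MIR and 16.5, 12.7 and 16.9 FPKM in MC libraries, which overlap (adjusted p = 0.196). Its relative Cdc25b had the lowest FPKM of the 42 genes, at 3.37, 3.31 and 4.21 FPKM in irradiated and 4.21, 5.08 and 5.01 FPKM in non-irradiated females and 2.14, 1.75 and 1.56 FPKM in MIR and 2.09, 3.65 and 2.45 FPKM in MC libraries, and did not pass the threshold in either sex (adjusted p = 0.141 in females and 0.0647 in males). Cdk1 itself, the kinase of this step, fell with log2 changes of -0.51 in females and -0.33 in males, and Cdca3, which in Xenopus eggs helps to trigger the destruction of the Wee1 kinase, with -0.45 and -0.49.

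The 3 mitotic kinases all fell in both sexes. For Nek2, a kinase that parts the centrosomes, the irradiated females held 33.1, 38.9 and 40.2 FPKM, against 65.1, 60.3 and 58.7 FPKM in non-irradiated females (log2 change -0.70, SE 0.14, adjusted p = 0.00234). The MIR libraries held 30.7, 50.4 and 38.1 FPKM of it, against 69.9, 70.003 and 66.4 FPKM in MC (log2 change -0.81, SE 0.14, adjusted p = 0.000563). Aurka, the spindle pole kinase, changed least of the 3, with 46.3, 42.6 and 44.6 FPKM in irradiated and 65.1, 67.5 and 62.6 FPKM in non-irradiated females (log2 change -0.54) and 44.9, 63.3 and 51.5 FPKM in MIR and 84.6, 78.5 and 84.5 FPKM in MC libraries (log2 change -0.64). Neither kinase overlapped between groups, and the same holds for Plk1, the kinase that acts from mitotic entry to cytokinesis (log2 changes -0.69 and -0.79).

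All 3 spindle checkpoint genes also fell in both sexes. These encode kinases or kinase-like proteins that delay anaphase until every chromosome is attached. Bub1 changed most, with 56.5, 76.97 and 75.03 FPKM in irradiated and 117, 119.9 and 130.1 FPKM in non-irradiated females (log2 change -0.82, SE 0.16, adjusted p = 0.00168). In males Bub1 had 52.5, 85.2 and 59.4 FPKM in MIR and 119, 120.4 and 124 FPKM in MC libraries (log2 change -0.90, SE 0.16, adjusted p = 0.000497). Ttk, which encodes the kinase Mps1, had 45.97, 61.5 and 52.9 FPKM in irradiated and 85.3, 86.3 and 88.9 FPKM in non-irradiated females, and Bub1b, which encodes BubR1, had 46.6, 66.995 and 50.96 FPKM in MIR and 83.8, 95.9 and 90.5 FPKM in MC libraries. None of these groups overlapped. The log2 changes of the 3 genes lay between -0.82 and -0.70 in females and between -0.90 and -0.72 in males.

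Of the genes of the APC/C and anaphase, Espl1 fell most and in males had the largest change of the whole set. Espl1 (chr15:102296266-102324357 on the plus strand, GRCm38, a protein-coding gene) encodes separase. Espl1 had 12.7, 16.1 and 20.4 FPKM in irradiated females, against 34.6, 36.1 and 29.4 FPKM in non-irradiated females (log2 change -0.9997, SE 0.17, adjusted p = 0.000669). Espl1 had 11.4, 16.2 and 13.9 FPKM in the MIR libraries, against 30.9, 37.1 and 31.2 FPKM in the MC libraries (log2 change -1.21, SE 0.17, adjusted p = 9.89e-05). The highest irradiated female and MIR values lie under the lowest non-irradiated female and MC ones. Cdc20, the APC/C activator of metaphase, fell too, with 87.8, 103 and 107 FPKM in irradiated and 123, 139.9 and 128 FPKM in non-irradiated females (adjusted p = 0.0265) and 69.2, 104 and 87.6 FPKM in MIR and 128, 125 and 128 FPKM in MC libraries (adjusted p = 0.00285). The female call of Cdc20 was lost without irradiated replicate 1 or non-irradiated replicate 2 or 3. Ube2c had 129, 149 and 153 FPKM in irradiated and 183, 176 and 163 FPKM in non-irradiated females, which do not overlap but did not pass the threshold (log2 change -0.28, adjusted p = 0.0915). In males Ube2c had 124, 181 and 156 FPKM in MIR and 240.3, 214 and 232 FPKM in MC libraries, and fell (log2 change -0.59, SE 0.13, adjusted p = 0.00179).

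The 3 centromere and kinetochore genes ranged widely. Cenpf (chr1:189640606-189688086 on the minus strand, GRCm38, a protein-coding gene), which encodes a large protein of the outer kinetochore, had the largest change of the set in females. That rank rests on irradiated replicate 3: without it the female log2 change was -0.85 for Cenpf and -1.16 for Espl1. Cenpf had 48.03, 42.4 and 22.7 FPKM in irradiated females, against 81.2, 77.6 and 88.6 FPKM in non-irradiated females (log2 change -1.17, SE 0.29, adjusted p = 0.00614). Cenpf had 38.5, 68.6 and 28.7 FPKM in the MIR libraries, against 88.8, 94.1 and 99.5 FPKM in the MC libraries (log2 change -1.13, SE 0.29, adjusted p = 0.00491). Replicate 3 was the lowest of the irradiated females and of MIR, and no irradiated female or MIR value reached a non-irradiated female or MC one. Cenpa, the histone H3 variant that marks centromeres, fell less, with 109.8, 128 and 116 FPKM in irradiated and 156, 151 and 159 FPKM in non-irradiated females (log2 change -0.40, adjusted p = 0.0339). In males Cenpa had 82.3, 122 and 90.9 FPKM in MIR and 174, 132 and 150.1 FPKM in MC libraries (log2 change -0.63). The groups of Cenpa did not overlap, but its female call was lost without irradiated replicate 1 or 3 or any 1 non-irradiated library. Cenpe, a kinetochore motor, had 26.2, 25.9 and 14.9 FPKM in irradiated and 28.8, 31.6 and 35.5 FPKM in non-irradiated females, and 23.01, 31.2 and 13.3 FPKM in MIR and 29.5, 27.4 and 32.1 FPKM in MC libraries. It passed the threshold in neither sex (adjusted p = 0.112 and 0.146), and the male sets overlap.

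The low values of replicate 3 were shared by 6 genes. Cenpe, Cenpf, Kif11, Hmmr, Smc4 and Mki67 were lowest in replicate 3 of both the irradiated female and the MIR sets. Their longest protein-coding transcripts in GENCODE M21 had a median GC content of 42.6% and a median length of 6364.5 bases, beside 48.2% and 3158 bases for the other 36 genes. Whether base composition or length of the transcript bears on these values was not tested. Without irradiated female replicate 3, 34 of the 42 genes fell, and without MIR replicate 3, 32 fell.

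The chromosomal passenger complex, which corrects kinetochore attachment and starts cytokinesis, fell in 2 of 4 genes in females (Incenp and Cdca8) and in 4 of 4 in males. Incenp, its scaffold, had 39.6, 47.1 and 52.5 FPKM in irradiated and 80.4, 84.3 and 72.6 FPKM in non-irradiated females (log2 change -0.76, SE 0.13, adjusted p = 0.000787). Birc5, which encodes survivin, had the smallest female change of the set, with 47.5, 72.9 and 75.8 FPKM in irradiated and 71.5, 73.4 and 73.8 FPKM in non-irradiated females (log2 change -0.18, adjusted p = 0.374). Irradiated replicate 1 lay well below the other 5 female libraries, which were close together. Aurkb, the kinase of the complex, was also lowest in irradiated replicate 1, at 14.5, 21.1 and 21.3 FPKM in irradiated and 23.5, 22.9 and 20.2 FPKM in non-irradiated females (adjusted p = 0.295). In males Cdca8, which encodes borealin, changed most, with 49.9, 69.8 and 57.6 FPKM in MIR and 119, 113 and 111 FPKM in MC libraries (log2 change -0.95, SE 0.14, adjusted p = 0.000167). Male Aurkb had 24.7, 40.5 and 30.4 FPKM in MIR and 40.9, 44.4 and 41.5 FPKM in MC libraries, close to the threshold (adjusted p = 0.0493), and its call was lost without either MIR replicate 1 or 3 or any 1 MC library. Male Birc5 had 71.6, 95.2 and 75.3 FPKM in MIR and 119, 102 and 122 FPKM in MC libraries (log2 change -0.50, adjusted p = 0.0171), and its call was lost without MIR replicate 1 or 3 or MC replicate 1 or 3. The female minus the male change passed the threshold for neither Aurkb (adjusted p = 0.679) nor Birc5 (adjusted p = 0.428).

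Spindle motors and microtubule binders fell in 6 of 6 cases in females and 5 of 6 in males. Kif2c, a kinesin that shortens microtubules at the centromere, changed most in both. Kif2c had 42.97, 52.9 and 51.5 FPKM in irradiated females, against 90.1, 93.1 and 94.2 FPKM in non-irradiated females (log2 change -0.90, SE 0.12, adjusted p = 0.000187). Kif2c had 37.9, 52.5 and 41.5 FPKM in the MIR libraries, against 72.8, 87.3 and 83.3 FPKM in the MC libraries (log2 change -0.88, SE 0.12, adjusted p = 0.000114). Kif2c did not overlap in either sex. Nusap1, a microtubule-bundling protein, changed least, with 53.5, 45.5 and 47.9 FPKM in irradiated and 62.5, 69.8 and 71.1 FPKM in non-irradiated females, and 44.8, 52.4 and 44.1 FPKM in MIR and 52.02, 57.7 and 63.5 FPKM in MC libraries, where MIR replicate 2 lay within the MC range. The male call of Nusap1 was lost without MIR replicate 1 or 3 or MC replicate 2 or 3. The spindle motors Kif11 and Kif4 had log2 changes of -0.74 and -0.57 in females and -0.55 and -0.51 in males. Tpx2, which activates Aurka on the spindle, changed by -0.71 in females and -0.35 in males. The male call of Kif4 was lost without MIR replicate 3 or MC replicate 2 or 3, and that of Tpx2 without MIR replicate 1 or MC replicate 2. Hmmr had 33.6, 29.9 and 24.999 FPKM in irradiated and 39.8, 43.98 and 47.6 FPKM in non-irradiated females (log2 change -0.56), and 28.9, 39.6 and 25.5 FPKM in MIR and 38.3, 39.02 and 40.6 FPKM in MC libraries, which overlap (log2 change -0.34, adjusted p = 0.0646).

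Genes of chromosome structure fell in 6 of 7 cases in females and 5 of 7 in males. Mki67, which encodes the proliferation marker Ki-67, a coat of mitotic chromosomes, changed most in females. Without irradiated replicate 3 its female log2 change was -0.81, so that rank leans on that library. Mki67 had 40.3, 40.9 and 24.9 FPKM in irradiated females, against 70.02, 70.1 and 75.5 FPKM in non-irradiated females (log2 change -1.04, SE 0.22, adjusted p = 0.00294). In males Mki67 had 44.6, 63.1 and 31.998 FPKM in MIR and 68.7, 80.8 and 84.7 FPKM in MC libraries (log2 change -0.78, SE 0.22, adjusted p = 0.00908). The condensin subunit Ncapd2 had the largest male change of this group, with 35.4, 45.04 and 37.7 FPKM in MIR and 71.2, 79.1 and 72.2 FPKM in MC libraries (log2 change -0.90, SE 0.12, adjusted p = 7.44e-05), and its female values were 28.7, 36.2 and 36.6 FPKM in irradiated and 67.8, 65.6 and 57.9 FPKM in non-irradiated libraries (log2 change -0.90). Another subunit of the same complex, Ncaph, had the smallest male change of the whole set, with 35.7, 44.5 and 41.5 FPKM in MIR and 43.7, 45.6 and 42.7 FPKM in MC libraries, which overlap (adjusted p = 0.456). Female Ncaph had 26.4, 38.3 and 37.2 FPKM in irradiated and 43.03, 47.4 and 40.4 FPKM in non-irradiated libraries (adjusted p = 0.0417), a call that was lost without irradiated replicate 1 or any 1 non-irradiated library. Smc4, the core ATPase that pairs with Smc2, varied within groups, at 111, 151 and 90.6 FPKM in irradiated and 121, 147 and 170.0 FPKM in non-irradiated females and 106, 154 and 62.9 FPKM in MIR and 154, 120.0 and 162 FPKM in MC libraries, and overlapped in both sexes. Top2a, whose promoter is printed above, had 149, 190.0 and 186 FPKM in irradiated and 271, 283 and 284 FPKM in non-irradiated females (log2 change -0.68), and 184, 304 and 201 FPKM in MIR and 315, 400.2 and 364 FPKM in MC libraries (log2 change -0.67), with no overlap in either. Smc2 and Ncapg fell in both sexes, with log2 changes of -0.88 and -0.67 in females and -0.82 and -0.67 in males, and the female call of Ncapg was lost without irradiated replicate 1 or non-irradiated replicate 3.

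All 6 cytokinesis genes fell in both sexes. Anln, which encodes the actin-binding scaffold anillin, changed most in females. Anln had 32.4, 39.9 and 42.2 FPKM in irradiated females, against 68.9, 73.7 and 73.4 FPKM in non-irradiated females (log2 change -0.90, SE 0.13, adjusted p = 0.00035). Ect2, the exchange factor that switches on RhoA at the cleavage furrow, changed most in males. Ect2 had 38.7, 58.7 and 46.5 FPKM in the MIR libraries, against 80.6, 94.8 and 89.4 FPKM in the MC libraries (log2 change -0.88, SE 0.13, adjusted p = 0.000187). Prc1, which bundles microtubules of the central spindle, changed least in both, with 54.5, 59.5 and 56.3 FPKM in irradiated and 87.4, 89.9 and 87.6 FPKM in non-irradiated females (log2 change -0.63) and 66.9, 81.04 and 67.4 FPKM in MIR and 82.9, 97.7 and 96.9 FPKM in MC libraries (log2 change -0.36). None of the 3 overlapped between groups. The kinesin Kif20a had log2 changes of -0.82 in females and -0.87 in males. Kif23 and Racgap1, the motor and the GTPase-activating protein of centralspindlin, had -0.66 and -0.82 in females and -0.41 and -0.43 in males.

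**Figure D4:**
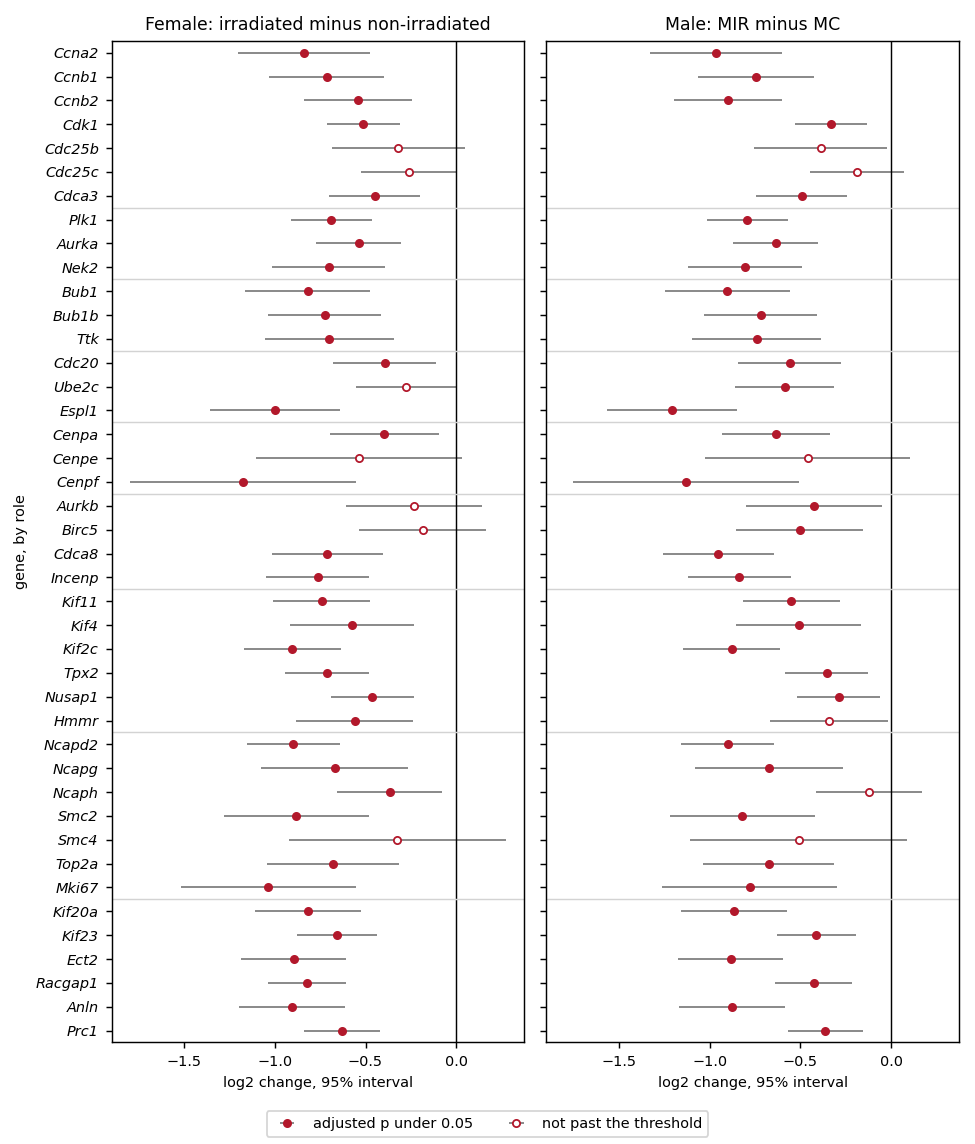
Log2 change with its 95% interval for each of the 42 genes, by role, in irradiated minus non-irradiated females (left) and MIR minus MC (right); filled points had an adjusted p under 0.05. All 42 points lie left of 0 in both panels, 35 filled in females and 36 in males.

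Whether the change differed between the sexes was tested as the female change minus the male change. None of the 42 genes passed, where 7.77% of the genes tested did (2.81% above and 4.96% below 0); 2 of the 42, Racgap1 and Tpx2, had an unadjusted p under 0.05. Racgap1 had the largest difference (log2 difference -0.40, SE 0.14, adjusted p = 0.107), with 18.98, 24.5 and 23.6 FPKM in irradiated and 40.6, 40.2 and 39.4 FPKM in non-irradiated females, and 29.5, 31.5 and 29.3 FPKM in MIR and 38.99, 42.7 and 40.9 FPKM in MC libraries. Tpx2 followed (log2 difference -0.36, adjusted p = 0.172). Ccnb2 stood at the other end (0.35, adjusted p = 0.295), with 111, 139.9 and 143 FPKM in irradiated and 182, 193 and 197 FPKM in non-irradiated females, and 68.9, 104 and 78.99 FPKM in MIR and 150.3, 153 and 162 FPKM in MC libraries. Without MIR replicate 2, Ccnb2 passed the threshold (log2 difference 0.52, adjusted p = 0.0329). Across the 42 genes the 2 sets of changes, which share no library, had a Pearson r of 0.72, given as a description because the genes share those libraries. In all, 33 genes fell in both sexes, Hmmr and Ncaph in females only and Ube2c, Aurkb and Birc5 in males only by the threshold, and 4 in neither. Neither the share of all genes that fell in both nor the r over all genes was computed. The 33 and the r thus do not set the 42 apart from other genes.

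**Figure D5:**
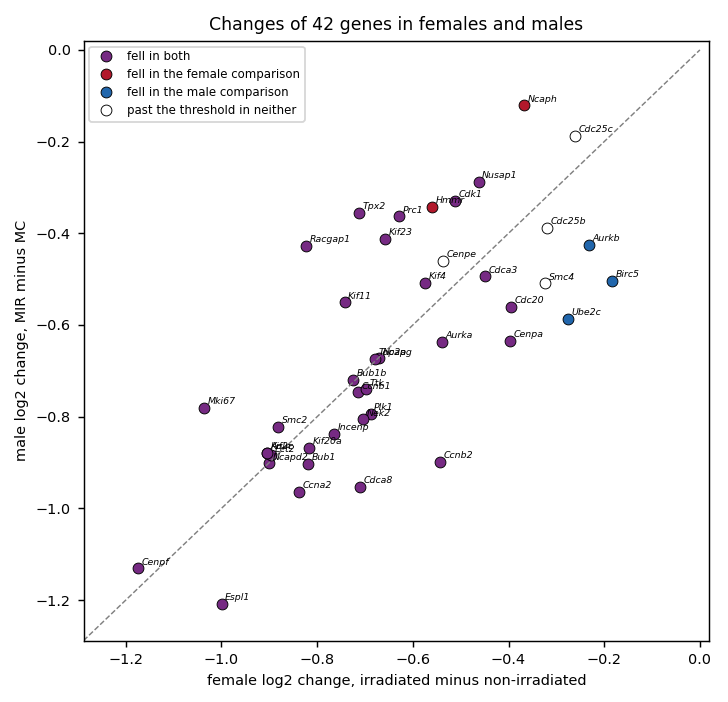
Log2 change of each of the 42 genes in irradiated minus non-irradiated females (horizontal) against MIR minus MC (vertical), coloured by where it fell; the dashed line marks equal changes. All points lie below 0 on both axes, Espl1 and Cenpf farthest, and Racgap1 and Mki67 lie above the line while Ccnb2 lies below it.

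At E11.5 the 42 genes did not move together. Of them 0 rose or fell by limma, where 0.0177% of the 11315 genes tested did (0.00884% rose and 0.00884% fell), and 0 had an unadjusted p under 0.05; the smallest adjusted p was 0.974. Of the changes 21 were below and 21 above 0, with a median of -0.001, beside -0.02 over all genes tested. The mean level was 5.92 ± 0.04 in irradiated (n = 2) and 5.91 ± 0.01 in non-irradiated cells (n = 3, SD). The groups did not overlap for 2 genes with lower irradiated values, Cenpa and Kif23 (9.51% of all genes tested), and 5 with higher ones, Espl1, Kif4, Kif20a, Ect2 and Prc1 (8.57%). Ect2 had the highest change, with 59.1 and 44.2 FPKM in irradiated and 43.2, 35.3 and 36.9 FPKM in non-irradiated cells (log2 change 0.41, SE 0.18). Smc4 had the lowest, with 133 and 48.6 FPKM in irradiated and 117, 96.04 and 82.6 FPKM in non-irradiated cells (log2 change -0.27, SE 0.37), irradiated replicate 1 being the highest and replicate 2 the lowest of all 5. Cenpf, which changed most in females at E13.5, had 49.4 and 28.5 FPKM in irradiated and 51.9, 38.2 and 26.99 FPKM in non-irradiated cells (log2 change -0.01, SE 0.31), and Espl1 had 22.4 and 23.5 FPKM in irradiated and 18.6, 19.7 and 18.8 FPKM in non-irradiated cells (log2 change 0.26, SE 0.15). These ranges overlap for Cenpf and do not for Espl1. Across all genes 1 rose and 1 fell, and 358 had an unadjusted p under 0.05. Erythroid markers, genes of red blood cells, summed to 653 and 10.2 FPKM in irradiated and 303, 1.07 and 377 FPKM in non-irradiated cells, so their level varied within both groups. The germ cell marker sums were 3815 and 3184 FPKM in irradiated and 3436, 3285 and 3908 FPKM in non-irradiated cells, and 0 genes of any related or marker list rose or fell. The p53 targets nonetheless had a median log2 change of 0.34 over the 15 tested, beside -0.02 over all genes tested. All 17 listed p53 targets summed to 656 and 604 FPKM in irradiated and 541, 532 and 607 FPKM in non-irradiated cells, which overlap. Single markers set irradiated replicate 1 apart. Dazl had 412 and 50.9 FPKM in irradiated and 58.5, 12.4 and 92.6 FPKM in non-irradiated cells, while Pou5f1 was lowest in that replicate. Sertoli and supporting cell markers summed to 24.6 and 5.19 FPKM in irradiated and 5.81, 2.97 and 2.06 FPKM in non-irradiated cells. How this bears on the E11.5 changes was not tested. The change at E11.5 was not tested against that at E13.5, whose table was made separately.

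Levels in non-irradiated E11.5, FC and MC libraries, set side by side over the separate tables with no test, differed between the days. MC is taken here by its code, although its titles call it irradiated. For 19 of the 42 genes every FC and MC library exceeded every non-irradiated E11.5 library, and for 5 (Cdc25c, Cdca3, Nek2, Ube2c and Cenpa) every one lay below. The median difference of the group means from E11.5 was 0.40 for FC and 0.39 for MC libraries on the log2 scale. The share and the median over all genes were not computed, so these values do not set the 42 apart from other genes. Total FPKM per library also differed, at 772969 to 919512 in non-irradiated E11.5 libraries and 610461 to 673932 in FC and MC libraries. Kif4 had 12.3, 13.53 and 13.8 FPKM in non-irradiated E11.5 cells, 32.8, 39.4 and 38.7 FPKM in non-irradiated females and 19.7, 24.3 and 24.1 FPKM in MC libraries at E13.5. Ube2c ran the other way, with 291, 347 and 487 FPKM at E11.5, 183, 176 and 163 FPKM in non-irradiated females and 240.3, 214 and 232 FPKM in MC libraries. By FPKM, which is per length, Ccnb1, Top2a and Ube2c were among the 4 most abundant of the 42 in each of these 3 groups, and Cdc25b was the least abundant in each.

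Between the sexes, FC minus MC, the 42 genes as a set differed little: the median log2 change was -0.02, as it was over all genes tested. Of the 42, 3 rose and 9 fell, where 16.1% of genes tested rose and 18.8% fell, and the groups did not overlap for 17 lower and 8 higher genes, beside 31.3% and 28.5% of all. The 3 genes higher in females were Kif4, Kif23 and Cdc25b. Kif4 had 32.8, 39.4 and 38.7 FPKM in FC and 19.7, 24.3 and 24.1 FPKM in MC libraries (log2 change 0.68, SE 0.16, adjusted p = 0.00567), and Kif23 had 52.6, 55.7 and 55.9 FPKM in FC and 32.4, 34.7 and 35.5 FPKM in MC libraries (log2 change 0.66, SE 0.10, adjusted p = 0.000375). Both motors were higher in each FC library than in any MC library. Cdc25b had 4.21, 5.08 and 5.01 FPKM in FC and 2.09, 3.65 and 2.45 FPKM in MC libraries (log2 change 0.65, adjusted p = 0.0107), again with no overlap. The 9 genes lower in females included 3 of the 4 passenger complex genes. Aurkb had 23.5, 22.9 and 20.2 FPKM in FC and 40.9, 44.4 and 41.5 FPKM in MC libraries (log2 change -0.90, SE 0.17, adjusted p = 0.00169), and Birc5 had 71.5, 73.4 and 73.8 FPKM in FC and 119, 102 and 122 FPKM in MC libraries (log2 change -0.64, SE 0.16, adjusted p = 0.00901). Both were lower in each FC library than in any MC library. Cdca8 (log2 change -0.49), Bub1b (-0.55), Cdc25c (-0.43), Ube2c (-0.39), Plk1 (-0.35), Aurka (-0.34) and Cdk1 (-0.30) were the others. Without FC replicate 3 the counts were 3 fallen and 3 risen, after quantile normalization 3 fallen and 4 risen, and after median scaling 5 fallen and 3 risen. Kif4, Kif23 and Aurkb passed the threshold in the same direction in all 17 settings tried, and Cdc25b in the 16 that tested it, since the filter at an FPKM of 5 left it out. Sertoli and supporting cell markers were also lower in FC, with 6 of 11 fallen, and their sums were 3.24 to 3.56 FPKM in FC and 56.0 to 100.2 FPKM in MC libraries. Their part in these differences was not tested.

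Genes that work with the 42 moved as follows, from lists that were chosen with earlier results of these data known. Of 16 regulators of late cell cycle transcription, 9 fell and 1 rose in females (median log2 change -0.38) and 10 fell and 2 rose in males (-0.37), the risen genes being Rbl2 in both and Rb1 in males. Mybl2, the activating partner of MuvB, had 30.2, 35.5 and 41.6 FPKM in irradiated and 78.8, 74.6 and 64.4 FPKM in non-irradiated females (log2 change -1.01, adjusted p = 0.00139), and 24.2, 46.6 and 33.5 FPKM in MIR and 91.8, 93.96 and 86.003 FPKM in MC libraries (log2 change -1.40). Foxm1, which binds the same promoters later, and Lin9, a MuvB core subunit, fell too, with log2 changes of -0.73 and -0.62 in females and -0.65 and -0.62 in males. Rbl2 encodes p130, the pocket protein of the repressing form of MuvB. Rbl2 had 6.28, 5.42 and 4.43 FPKM in irradiated and 1.53, 1.27 and 1.33 FPKM in non-irradiated females (log2 change 1.41, adjusted p = 9.54e-05), and 7.60, 4.71 and 4.85 FPKM in MIR and 1.26, 1.40 and 1.41 FPKM in MC libraries (log2 change 1.49). No library of one group reached the other for Rbl2 or Mybl2.

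Among 9 genes listed as brakes on mitotic entry, of which Gtse1 is a doubtful member, 5 rose and 2 fell in each sex (median log2 change 0.62 in females and 0.98 in males). Btg2 and Rprm, both p53 targets, rose most: Btg2 had 30.2, 64.4 and 66.4 FPKM in irradiated and 6.72, 6.15 and 6.66 FPKM in non-irradiated females (log2 change 2.78), and Rprm had 3.51, 4.07 and 3.46 FPKM in irradiated and 0.215, 0.306 and 0.0528 FPKM in non-irradiated females (log2 change 1.98). In males the changes were 3.24 for Btg2 and 2.47 for Rprm. Ccng2, an atypical cyclin, rose as well, with log2 changes of 0.81 in females and 1.13 in males. Gtse1 was the other gene that rose in females, and Gadd45a in males, beside Cdkn1a. The 2 that fell were Wee1 and Pkmyt1, kinases that inhibit Cdk1 directly; Wee1 had 37.2, 50.4 and 55.5 FPKM in irradiated and 82.1, 73.1 and 69.7 FPKM in non-irradiated females (log2 change -0.66). Wee1, Pkmyt1, Gtse1 and Gadd45a are named to complete these counts, after their values were seen. The wider list of 17 p53 targets, which shares genes with these, rose in 17 of 17 cases in females and in 15 of 17 in males, where Pmaip1 fell (median log2 change 1.39 in females and 1.81 in males).

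Other parts of the mitotic machinery fell more often than they rose. Of 29 further checkpoint and kinetochore genes, 12 fell and 1 rose in females and 17 fell and 1 rose in males, with medians of -0.38 and -0.43 and Zwint the gene that rose in both. Kntc1, a subunit of the checkpoint complex RZZ, had 13.03, 18.9 and 17.1 FPKM in irradiated and 31.4, 31.8 and 31.5 FPKM in non-irradiated females (log2 change -0.92), and Zw10, of the same complex, changed by -0.55. Of 17 APC/C subunits and inhibitors, 8 fell and 2 rose in females and 11 fell and 1 rose in males, with medians of -0.24 and -0.44. Ube2s, which extends the ubiquitin chains that Ube2c begins, had 194, 274 and 239 FPKM in MIR and 533, 419.7 and 455 FPKM in MC libraries (log2 change -0.996). Of 14 cohesin and separation genes, 10 fell and 0 rose in each sex (medians -0.65 and -0.57), among them the cleavable cohesin subunit Rad21, with 136, 153 and 165 FPKM in irradiated and 275, 249.9 and 256 FPKM in non-irradiated females (log2 change -0.78). Of 31 other cytokinesis and spindle genes, 23 fell and 1 rose in females and 18 fell and 0 rose in males, with medians of -0.58 and -0.52, Kifc1 being the gene that rose. Examples are log2 changes in females of -0.90 for Dlgap5 and -0.84 for Kif14, both microtubule-associated. The 3 condensin subunits outside the 42, Ncapd3, Ncapg2 and Ncaph2, fell in both sexes (medians -0.75 and -0.65). Of the APC/C genes, Anapc16 rose in both sexes (log2 change 0.45 in females and 0.36 in males) and Cdc26 in females.

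The changes were also set beside the promoter motifs. The 27 genes with both a CHR and a CCAAT match had median log2 changes of -0.68 in females and -0.67 in males. The 3 with a CHR alone, Birc5, Kif2c and Anln, ranged from -0.90 to -0.18 in females, and the 3 with CCAAT alone, Cdc25b, Nek2 and Bub1, from -0.82 to -0.32. Nusap1 and Ncaph, with neither, changed by -0.46 and -0.37 in females and by -0.29 and -0.12 in males. No test was made between these classes.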

How the data were processed

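RNA depleted of ribosomal RNA was sequenced in 17 libraries, 5 at E11.5 and 12 at E13.5. The deposited values are FPKM per gene in 1 table per day, computed by the authors; DESeq2 and the mm10 build are named per the submitters' processing notes, and for the aligner, the counter and the annotation the sources used here name nothing. Both tables hold values for the 17 labelled libraries alone, and 0 of 76 pairs of libraries within a day held identical values. Depth was estimated from genes with an FPKM of at most 0.3 and transcripts of 3000 bases or more, keeping only those whose values came out as whole fragments. Of low values for transcripts of any length, 50.2% of 2659 (E11.5) and 82.0% of 9460 (E13.5) came out as whole fragments within 0.1. By chance 20% would do so. The depth at E11.5 is thus less firm than at E13.5, and no count test was run.

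Levels were taken as log2(FPKM + 1). Genes that reached an FPKM of 1 in 2 or more (E11.5) or 3 or more (E13.5) libraries were tested with limma 3.58.1 (trend, empirical Bayes) in R 4.3.3, with Benjamini-Hochberg adjustment over all genes tested. All 42 genes passed that filter on both days. E11.5 had its own fit, and the 4 groups of E13.5 shared 1. The fit was tested on simulated data first. Tables, promoter searches and figures were made in Python 3.11.15 with pandas 2.3.3, numpy 2.4.6 and matplotlib 3.10.9; gene positions and transcripts are those of GENCODE M21, and promoter windows those of RefSeq.

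The 42 genes and the lists beside them (regulators, checkpoint and kinetochore, APC/C, cohesin, brakes on entry, cytokinesis and spindle, condensin, p53 targets and cell type markers) were chosen with earlier results of these data known. Per-library values are given for the genes with the largest and the smallest change in each of 9 roles and comparisons and for those called against the median of the 42; other values were added after being seen. From the other lists, up to 4 genes with the smallest adjusted p per comparison could be named. Alternatives were other pseudocounts, filters and scalings, library weights, a replicate block, a germ cell marker covariate, fits of only the groups compared, exchanged male codes, and leaving out each library. The choice of Ccnb2 among the printed promoters and the fit without MIR replicates 1 and 3 were added after seeing the data.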

Additional observations from a re-analysis of the deposited data

How the results depend on the processing

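The called genes kept their direction in females and males under each alternative tried, except for 9 male genes with the germ cell marker covariate, but the number past the threshold changed. Counts of all genes called are given below for some settings only. Where none is given, a count among the 42 cannot be told apart from a general change in calls. In females 35 fell, 18 with the germ cell marker covariate, 28 after quantile normalization, 39 with library weights and 31 to 35 without any 1 library; 17 passed in all 16 settings. In males 36 fell, 0 with the covariate, 15 without MIR replicates 1 and 3 (chosen after seeing the data), 30 after quantile normalization and 32 to 39 without any 1 library; 0 passed in all 17 settings. With the covariate the male changes of Aurkb (0.47), Birc5 (0.28), Ncapg (0.23), Top2a (0.10), Cdc20 (0.088), Cdca3 (0.058), Ttk (0.049), Ube2c (0.039) and Smc2 (0.0080) were above 0, with adjusted p from 0.129 to 0.989. Of genes not called, female Aurkb (0.29), Birc5 (0.28) and Ube2c (0.089) and male Ncaph (0.43) were also above 0 with the covariate, and male Smc4 (0.098), Cenpe (0.070), Ncaph (0.014) and Hmmr (0.0097) without MIR replicates 1 and 3. Quantile normalization gave 0.016 for female Birc5 and 0.049 for male Ncaph, and leaving out irradiated female replicate 1 gave 0.028 for Birc5. The number of all genes called was 5756 in females, 2819 with the covariate and 4306 to 5424 without 1 library, and 7679 in males, 971 with the covariate, 3271 without MIR replicates 1 and 3 and 6171 to 8169 without 1 library. At E11.5 it was 2, with 1 without a filter, 5 with the replicate block and 2 to 17 without 1 library (17 without irradiated replicate 2), and 0 of the 42 passed in each case. For FC minus MC, 9 fell: 3 after quantile normalization, 5 after median scaling, 15 with weights, 17 with the covariate, 15 with only these groups, 1 with the male codes exchanged and 3 to 8 without 1 library; 3 rose, 6 with weights, 32 with codes exchanged and 3 without any 1 library. All genes called there numbered 4491, with 7537 under weights, 7828 with codes exchanged and 3145 to 3638 without 1 library. Exchanging the codes gave 0.51 for Kif20a, 0.46 for Cdca8, 0.44 for Plk1, 0.30 for Aurka, 0.19 for Ube2c, 0.17 for Bub1b and 0.028 for Cdk1, all below 0 by code. For the female minus the male change 0 of the 42 passed, with 13 under weights, 2 with the covariate (Racgap1 and Tpx2), 41 with codes exchanged, where Ccnb2 was -1.44, and 0 to 1 without 1 library. All genes called there were 998, with 557 at a filter of 5, 5482 under weights, 8702 with codes exchanged and 463 to 2490 without 1 library. The mean level of the 42 genes differed by -0.64 in females (-0.48 after quantile normalization, -0.75 by the median over genes, -0.69 to -0.58 without 1 library), by -0.65 in males (-0.79 to -0.56), by -0.07 between FC and MC (0.027 after quantile normalization, -0.14 by the median, -0.09 to -0.06) and by 0.006 at E11.5 (0.076, -0.030 and -0.023 to 0.036). The median change of all genes was -0.11 in females and -0.16 in males after quantile normalization, and -0.11 and -0.20 after median scaling. The cause of these shifts was not tested.

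With the replicate number as a block, 35 of the 42 genes fell in females, 36 in males and 0 passed in the female minus male test, while 11 fell and 3 rose for FC minus MC. The numbers were not taken to pair the libraries, since no source gives them a shared origin and correlations of same-numbered deviations did not all pass 0.1 in any 2 groups with 3 pairs: they were 0.0965 to 0.482 between irradiated females and MIR and -0.218 to 0.0884 in the other such pairings. At E11.5, with 2 pairs, they were 0.156 and 0.246. Between irradiated females and MIR, replicates 1 and 2 stood at 0.482 and 0.406, and only replicate 3 lay under 0.1. Whether same-numbered irradiated female and MIR libraries shared a batch was not tested. Depth was only estimated, so no interval for counting error is given, and precision rests on 2 or 3 libraries a group.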
